A study of Mus musculus with 15 samples.

Results

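Cholesterol enters and leaves the hepatocyte by several routes, and the 31 genes described here cover its synthesis, the sensing of sterols, and the transport, esterification, uptake and efflux of the product. They were chosen by symbol from the 26264 genes of the count table, and all 31 passed the filter on low counts that left 13189 genes for testing. Of these, 18 encode enzymes of synthesis (7 of the early steps that make farnesyl diphosphate from acetyl-CoA, and 11 of the sterol branch that begins with squalene), 5 encode regulators, and 8 encode proteins of sterol transport, esterification, uptake and efflux.

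RNA of 15 mouse livers was sequenced after selection of polyadenylated RNA, with 3 libraries in each of 5 groups. In HFD-337 (replicates 23, 26 and 27) the number in the label matches Gc337, the agent that the series describes for knockdown of Stk25, a protein kinase gene, in mice with fatty liver disease induced by a high-fat diet. HFD-338 (replicates 17, 18 and 19) is a further high-fat diet group whose number the labels do not explain, HFD-Res (replicates 29, 30 and 34) is read as the group given resmetirom, which activates the beta receptor of thyroid hormone, HFD-NS (replicates 12, 13 and 16) is the high-fat diet group that the treated groups were set against, and SD-NS (replicates 6, 7 and 8) is the SD group. The labels used here do not spell out NS or SD and give no strain, sex, age, dose or length of treatment, nor do they say whether other treatments, such as a vehicle, were shared by the groups. SD is read here as another diet, an assumption, and "with the diet" below names the comparison of HFD-NS against SD-NS.

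Hepatocytes build cholesterol from acetyl-CoA through mevalonate, isoprenoid diphosphates, squalene and lanosterol, and the genes of most of these enzymes are activated together by the transcription factor SREBP-2, the product of Srebf2. When sterols are scarce in the endoplasmic reticulum, Scap escorts SREBP-2 to the Golgi apparatus for cleavage, and when sterols are plentiful the Insig proteins hold Scap back. Surplus sterol is esterified for storage, loaded onto lipoproteins, or secreted into bile, a route of which the liver is the main site.

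Levels are given in CPM, read counts scaled to a common library size by TMM, in the order of the replicate numbers above, and values after ± are SDs over 3 libraries. Total counts ran from 3873903 to 9797743 per library. The 6 hepatocyte markers (Alb, Ttr, Cps1, Tat, Hnf4a and Apoa1) were detected in every group, and their summed level was 81250.0 to 123400.0 CPM in HFD-337, 92060.0 to 99240.0 CPM in HFD-338, 69420.0 to 76600.0 CPM in HFD-Res, 95780.0 to 109700.0 CPM in HFD-NS, beside 107900.0 to 132300.0 CPM in SD-NS. Stk25, which shares 23.1% of its exon length with Farp2, had 19.1, 18.8 and 14.6 CPM in HFD-337, 22, 21.9 and 20.5 CPM in HFD-338, 46.9, 37.7 and 41.3 CPM in HFD-Res, 48.6, 43.7 and 47.3 CPM in HFD-NS, and 50.6, 53.3 and 47.8 CPM in SD-NS. It was thus lower in every HFD-337 and HFD-338 library than in any of the other 9, at 37.6% of the HFD-NS mean in HFD-337 (edgeR log2FC -1.40, SE 0.115, adjusted p = 3.8e-08) and 46.2% in HFD-338 (log2FC -1.11, SE 0.11, adjusted p = 6.41e-07). Calls rest on edgeR's quasi-likelihood test with Benjamini-Hochberg adjustment over all 13189 genes and a threshold of 0.05, log2FC is the fitted log2 fold change, and "rose" and "fell" below are used of called genes, for the first group named in a comparison. Nothing in the labels says how the 3 animals of a group were housed or sampled, so the p-values measure only the spread between these libraries.

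The synthesis pathway as a whole was far higher in HFD-Res than in any other group. Set against HFD-NS, 22 of the 31 genes rose and 1 fell in HFD-Res, where 6.22% of all genes tested rose and 6.74% fell. Of the 18 synthesis enzymes 17 rose, each by at least 2-fold, a size of rise found in 2.31% of all genes tested. Their median log2 fold change was 2.87, beside 0.01 over all genes. In 17 of the 18 enzymes every HFD-Res library lay above all 12 other libraries, and the share of all genes tested with this order was not counted. Because this is whole tissue, more RNA per hepatocyte and a larger share of hepatocytes cannot be told apart here, and the sum of the 6 hepatocyte markers was less in every HFD-Res library than in any HFD-NS library. Most of that sum is Alb, at 56127 ± 3331 CPM in HFD-Res and 82666 ± 6172 CPM in HFD-NS, and 2 of the 6 markers fell while none rose. Ttr averaged 3654 ± 302 CPM in HFD-Res and 7260 ± 623 CPM in HFD-NS. Cps1 averaged 2712.5 ± 354 CPM in HFD-Res and 2921 ± 568 CPM in HFD-NS. Tat averaged 1222 ± 415 CPM in HFD-Res and 762 ± 91.2 CPM in HFD-NS, Apoa1 7589 ± 973 CPM in HFD-Res and 7109 ± 608 CPM in HFD-NS, and Hnf4a 636 ± 86.7 CPM in HFD-Res and 651 ± 34.4 CPM in HFD-NS.

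The transcript level of the pathway, summed over its 18 enzymes in TPM, which scale counts by exon length and library size, averaged 1062 ± 51.4 TPM in HFD-337, 1157 ± 81.5 TPM in HFD-338, 5433 ± 1215 TPM in HFD-Res, 1082 ± 118 TPM in HFD-NS, beside 692 ± 17.8 TPM in SD-NS. The sum in HFD-Res was 5.02 times that in HFD-NS. For the 7 early enzymes alone this ratio was 8.18, and for the 11 enzymes of the sterol branch it was 3.97. The HFD-NS sum was 1.56 times that of SD-NS, whereas the HFD-337 and HFD-338 sums were 0.981 and 1.07 times that of HFD-NS.

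**Figure D1:**
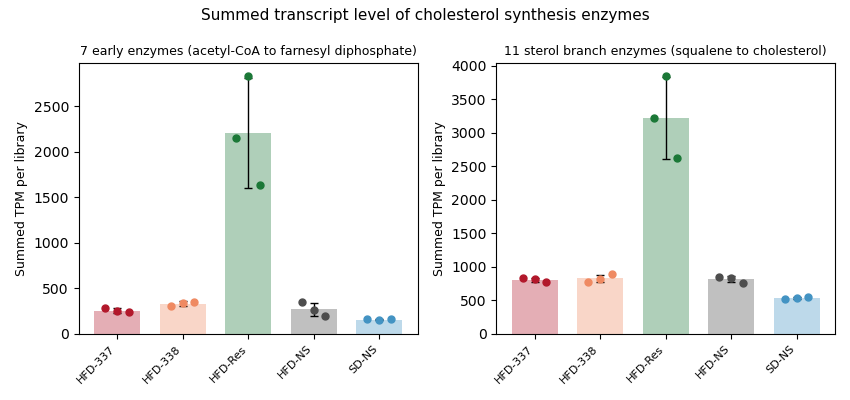
Summed TPM (vertical axes) of the 7 early enzymes (left) and the 11 sterol branch enzymes (right) in 5 groups of 3 libraries. Points are libraries, bars are group means and error bars are SDs. The HFD-Res libraries lie between 1630.3 and 2830.3 TPM for the early enzymes and between 2619 and 3847 TPM for the sterol branch, above every other library.

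The early enzymes begin with Acat2, the cytosolic thiolase that joins acetyl-CoA units (chromosome 17, 13161929 to 13179612 in mm39). Acat2 had 27.4, 35.4 and 30.6 CPM in HFD-337, 39.1, 38 and 38.9 CPM in HFD-338, 130.0, 155 and 97.2 CPM in HFD-Res, 44, 35.6 and 40 CPM in HFD-NS, and 28.4, 25.7 and 27.3 CPM in SD-NS. All HFD-Res libraries exceeded the rest, and all HFD-NS libraries exceeded those of SD-NS. Its change was the smallest of the early enzymes in HFD-Res (3.2-fold, log2FC 1.67, SE 0.136, adjusted p = 7.79e-08), and it also rose with the diet (log2FC 0.55, SE 0.145, adjusted p = 0.00813). Reads of Acat3, a close copy of Acat2 nearby on chromosome 17, may be shared with it, so its level is uncertain.

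Hmgcs1 encodes the synthase that makes HMG-CoA, the precursor of mevalonate (chromosome 13, 120151887 to 120169796). It had 237, 216 and 183 CPM in HFD-337, 255, 277 and 322 CPM in HFD-338, 2257, 2767 and 1667 CPM in HFD-Res, 317, 255 and 173 CPM in HFD-NS, and 185, 161 and 190.1 CPM in SD-NS. The lowest HFD-Res library held more than 5 times the highest value of any other group, and the other 4 groups overlapped one another in part. Hmgcs1 rose 8.98-fold in HFD-Res (log2FC 3.17, SE 0.22, adjusted p = 1.64e-07). The difference between HFD-NS and SD-NS did not pass (log2FC 0.47, SE 0.206, adjusted p = 0.101).

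Mevalonate is phosphorylated by the kinases Mvk (chromosome 5, 114582330 to 114598651) and Pmvk (chromosome 3, 89361848 to 89376316). Mvk had 3.74, 6.57 and 6.49 CPM in HFD-337, 5.59, 6.68 and 6.15 CPM in HFD-338, 31.9, 48.8 and 26.4 CPM in HFD-Res, 3.62, 3.23 and 4.32 CPM in HFD-NS, and 1.46, 2.92 and 1.69 CPM in SD-NS. It was highest in HFD-Res, and outside that group HFD-338 lay above and SD-NS below HFD-NS without overlap. In HFD-Res it rose 9.59-fold (log2FC 3.23, SE 0.244, adjusted p = 2.95e-08). Pmvk had 13, 15.8 and 14 CPM in HFD-337, 12.9, 11.5 and 14.1 CPM in HFD-338, 76.9, 98 and 74 CPM in HFD-Res, 15.8, 12.8 and 14 CPM in HFD-NS, and 12.2, 9.72 and 13.8 CPM in SD-NS. Outside HFD-Res the groups overlapped one another. Pmvk rose 5.84-fold in HFD-Res (log2FC 2.54, SE 0.139, adjusted p = 2.76e-10).

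Mvd, the decarboxylase that makes isopentenyl diphosphate (chromosome 8, 123160335 to 123170161), had 5.32, 3.57 and 5.68 CPM in HFD-337, 5.93, 7.17 and 7.46 CPM in HFD-338, 43.5, 55.7 and 36.6 CPM in HFD-Res, 8.41, 6.83 and 2.85 CPM in HFD-NS, and 0.399, 0.778 and 1.12 CPM in SD-NS. The 3 SD-NS libraries were the lowest of the 15, and the HFD-NS libraries differed among themselves by nearly 3-fold. Mvd rose in HFD-Res over HFD-NS (7.51-fold, log2FC 2.91, SE 0.269, adjusted p = 1.91e-06) and in HFD-NS over SD-NS (7.85-fold, log2FC 3.09, SE 0.512, adjusted p = 0.000378). The change with the diet was the largest among the 31 genes, but the SD-NS libraries held only 3, 4 and 4 reads of Mvd. Over the 12 alternative fits its log2 fold change with the diet ran from 1.99 to 3.44.

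Idi1, the isomerase of isopentenyl diphosphate (chromosome 13, 8935642 to 8942432), showed the largest change of all members in HFD-Res. It had 3.54, 4.15 and 5.07 CPM in HFD-337, 12.3, 15.5 and 17 CPM in HFD-338, 130.2, 217 and 102 CPM in HFD-Res, 11, 7.08 and 4.95 CPM in HFD-NS, and 4.93, 5.44 and 3.66 CPM in SD-NS. The 3 HFD-Res libraries stood highest and the 3 of HFD-338 next, with no overlap between them or with HFD-NS. The rise in HFD-Res was 19.5-fold (log2FC 4.28, SE 0.313, adjusted p = 1.73e-06). Exons of Idi1 share 86.3% of their length with the pseudogene Idi1-ps1 on the same strand, and reads there count for both, so the level of Idi1 alone is uncertain.

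Fdps, which joins isoprenoid units to farnesyl diphosphate (chromosome 3, 89000895 to 89009274), had 80.5, 73.2 and 85 CPM in HFD-337, 52.3, 48.6 and 59.4 CPM in HFD-338, 438, 518 and 349 CPM in HFD-Res, 72.6, 40.4 and 33.4 CPM in HFD-NS, and 20.2, 25.5 and 14.1 CPM in SD-NS. HFD-Res was highest and SD-NS lowest, and HFD-NS replicate 12 stood apart from the other two libraries of its group, just under the HFD-337 values. Fdps rose in HFD-Res (8.91-fold, log2FC 3.15, SE 0.273, adjusted p = 9.65e-06) and in HFD-NS over SD-NS (log2FC 1.27, SE 0.288, adjusted p = 0.00664), a call lost under a fit of only the 2 groups (0.0611).

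The sterol branch opens with Fdft1, squalene synthase (chromosome 14, 63382600 to 63417027). Fdft1 had 55.3, 64.3 and 52.2 CPM in HFD-337, 74.1, 73.8 and 77 CPM in HFD-338, 385, 483 and 310.3 CPM in HFD-Res, 66, 68.8 and 56.3 CPM in HFD-NS, and 41.7, 43.2 and 36.8 CPM in SD-NS. HFD-Res lay above all others and SD-NS below all others. It rose 6.17-fold in HFD-Res (log2FC 2.62, SE 0.135, adjusted p = 1.12e-10) and also with the diet (log2FC 0.64, SE 0.137, adjusted p = 0.00185). Exons of Fdft1 overlap those of Ctsb on the opposite strand over 20.9% of their length, and strand was not used in counting, so reads in that part cannot be assigned.

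Sqle, squalene epoxidase, a control point of the branch (chromosome 15, 59186941 to 59203042), had 39.4, 32.2 and 38 CPM in HFD-337, 38, 45.4 and 52.2 CPM in HFD-338, 322, 380.4 and 319.8 CPM in HFD-Res, 33.5, 24.2 and 18.3 CPM in HFD-NS, and 9.59, 11.9 and 6.75 CPM in SD-NS. SD-NS was below and HFD-Res above all other libraries, and HFD-338 lay above HFD-NS without overlap. Its rise of 13.4-fold in HFD-Res (log2FC 3.75, SE 0.198, adjusted p = 9.6e-09) was second to that of Idi1. With the diet it rose 2.7-fold (log2FC 1.40, SE 0.229, adjusted p = 0.000459).

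Lss closes the squalene chain into lanosterol (chromosome 10, 76367439 to 76392973). It had 24.2, 26.4 and 31.3 CPM in HFD-337, 26.2, 26 and 31.7 CPM in HFD-338, 151, 183 and 106 CPM in HFD-Res, 21.1, 19.9 and 16.4 CPM in HFD-NS, and 14.6, 16.3 and 13.5 CPM in SD-NS. HFD-Res stood well above the other groups, which spanned a narrow range in which SD-NS held the 3 lowest values and HFD-NS the next. Lss rose 7.66-fold in HFD-Res (log2FC 2.93, SE 0.172, adjusted p = 3.47e-09), while the difference between HFD-NS and SD-NS did not pass (log2FC 0.36, SE 0.191, adjusted p = 0.174).

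Cyp51, the demethylase that acts on lanosterol (chromosome 5, 4130674 to 4154697), had 50, 55.7 and 82.6 CPM in HFD-337, 106, 110.5 and 128 CPM in HFD-338, 901, 1038 and 754 CPM in HFD-Res, 100.4, 74.9 and 52.3 CPM in HFD-NS, and 56.3, 83.6 and 45.3 CPM in SD-NS. The HFD-338 libraries exceeded those of HFD-NS by a small margin, and HFD-337, HFD-NS and SD-NS overlapped. Cyp51 rose 11.8-fold in HFD-Res (log2FC 3.56, SE 0.287, adjusted p = 4.97e-06).

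Tm7sf2, a sterol reductase that acts after Cyp51 (chromosome 19, 6112851 to 6117880), had 21.9, 34 and 29.6 CPM in HFD-337, 24.4, 18.4 and 26.7 CPM in HFD-338, 107, 93.6 and 95.3 CPM in HFD-Res, 44.1, 35.1 and 40.9 CPM in HFD-NS, and 34.9, 31.1 and 44.4 CPM in SD-NS. HFD-Res was highest in every library, and HFD-338 and HFD-337 were below HFD-NS without overlap. Its rise in HFD-Res was among the smallest of the pathway (2.47-fold, log2FC 1.3, SE 0.156, adjusted p = 1.65e-05), and HFD-NS and SD-NS did not differ beyond their spread (log2FC 0.14, SE 0.162, adjusted p = 0.573).

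Msmo1, Nsdhl and Hsd17b7 act in turn to remove the methyl groups at carbon 4 of the sterol. Msmo1 (chromosome 8, 65171157 to 65186612) had 69.1, 99 and 102 CPM in HFD-337, 116, 112 and 146 CPM in HFD-338, 959, 1085 and 728 CPM in HFD-Res, 97.7, 86.2 and 66.4 CPM in HFD-NS, and 30, 28.6 and 26.2 CPM in SD-NS. The SD-NS libraries were the lowest and the HFD-Res libraries the highest by a wide gap. It rose 11.1-fold in HFD-Res (log2FC 3.47, SE 0.189, adjusted p = 4.13e-09) and 2.96-fold with the diet (log2FC 1.56, SE 0.19, adjusted p = 2.79e-05).

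Nsdhl (chromosome X, 71962127 to 72002134) had 26.4, 25.4 and 27.4 CPM in HFD-337, 29.6, 34.9 and 30.6 CPM in HFD-338, 193, 216 and 164 CPM in HFD-Res, 31.8, 24.6 and 24.2 CPM in HFD-NS, and 9.98, 10.5 and 10.7 CPM in SD-NS. The SD-NS libraries were the lowest and the HFD-Res libraries the highest, and the other groups lay close together. In HFD-Res it rose 7.11-fold (log2FC 2.83, SE 0.12, adjusted p = 4.4e-12), the smallest adjusted p among the 31 genes in this comparison. Hsd17b7 (chromosome 1, 169777106 to 169796774) had 27.4, 30.7 and 30.6 CPM in HFD-337, 51.4, 53.7 and 60.6 CPM in HFD-338, 289, 374 and 221 CPM in HFD-Res, 53.6, 54.9 and 45.9 CPM in HFD-NS, and 108, 115 and 101 CPM in SD-NS. Here SD-NS was above HFD-NS, HFD-338 and HFD-337 in every library, the reverse of the order seen for Msmo1 and Nsdhl. Hsd17b7 rose 5.73-fold in HFD-Res (log2FC 2.52, SE 0.147, adjusted p = 1.94e-09) and was the only synthesis enzyme that fell with the diet (log2FC -1.07, SE 0.144, adjusted p = 3.84e-05).

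Ebp, the sterol isomerase that follows (chromosome X, 8051568 to 8059751), was the one synthesis enzyme not called in HFD-Res. It averaged 346 ± 12.2 CPM in HFD-337, 149.8 ± 18.2 CPM in HFD-338, 224 ± 12.2 CPM in HFD-Res, 217 ± 21.9 CPM in HFD-NS, beside 166 ± 4.74 CPM in SD-NS. HFD-Res and HFD-NS overlapped (log2FC 0.05, SE 0.1, adjusted p = 0.828), and the 95% interval of the log2 fold change, -0.16 to 0.26, left out a change as large as that of any other synthesis enzyme. The HFD-337 libraries were the highest and those of HFD-338 and SD-NS the lowest.

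Sc5d, the desaturase of the next step (chromosome 9, 42165473 to 42175596), had 271, 285 and 238 CPM in HFD-337, 238, 254 and 288 CPM in HFD-338, 673, 789 and 579.6 CPM in HFD-Res, 311, 344 and 309 CPM in HFD-NS, and 218, 221 and 218 CPM in SD-NS. HFD-Res was highest, HFD-NS next and SD-NS lowest, with no overlap between these groups. Sc5d rose 2.12-fold in HFD-Res (log2FC 1.08, SE 0.113, adjusted p = 2.08e-06), the smallest of the 17 rises, and also with the diet (log2FC 0.56, SE 0.113, adjusted p = 0.00131). Dhcr7, the reductase whose product is cholesterol in one arm of the branch (chromosome 7, 143376904 to 143402147), had 21.5, 27.3 and 26.2 CPM in HFD-337, 27.6, 22.8 and 27.6 CPM in HFD-338, 152, 172 and 101 CPM in HFD-Res, 25.2, 19.4 and 25.2 CPM in HFD-NS, and 17.3, 14.6 and 16.6 CPM in SD-NS. HFD-Res lay above and SD-NS below all other libraries, and HFD-337, HFD-338 and HFD-NS overlapped. Dhcr7 rose 6.09-fold in HFD-Res (log2FC 2.60, SE 0.169, adjusted p = 1.36e-08), and its rise with the diet (log2FC 0.52, SE 0.186, adjusted p = 0.0447) was lost without HFD-NS replicate 12 (0.12), HFD-NS replicate 16 (0.137), SD-NS replicate 6 (0.0771), SD-NS replicate 7 (0.163) or SD-NS replicate 8 (0.0874) and under limma-voom (0.0817).

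**Figure D2:**
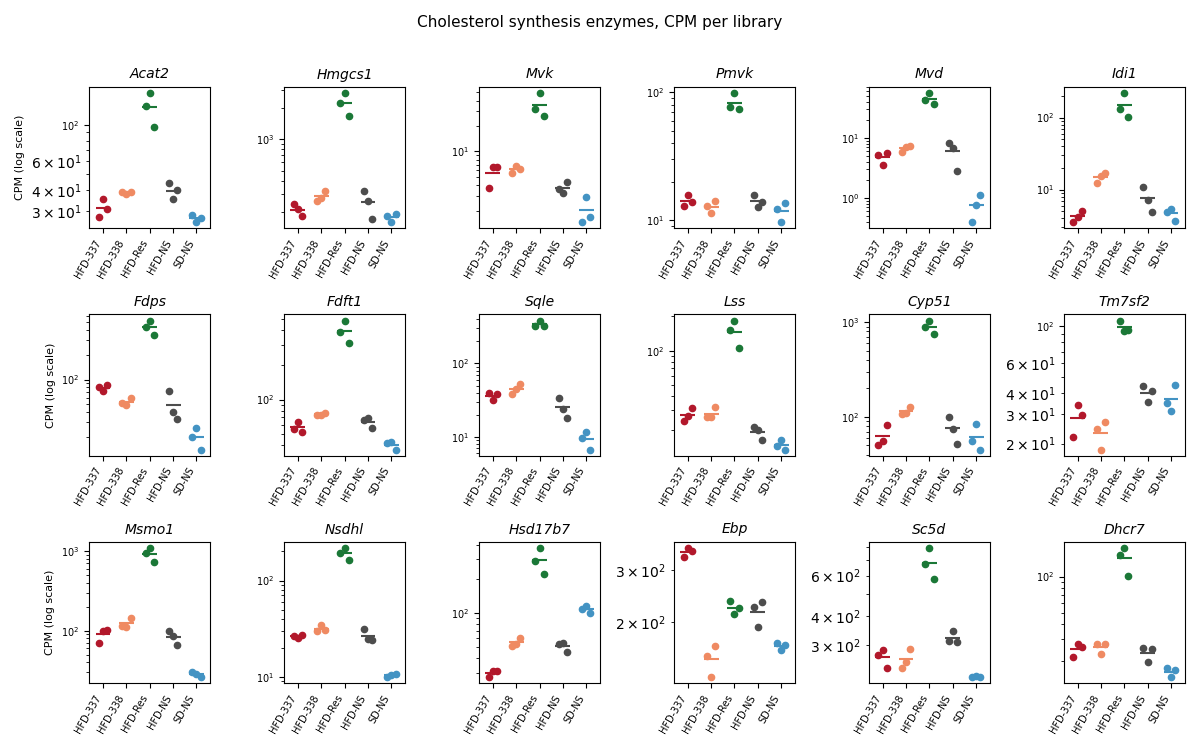
CPM on a log scale (vertical axes, 1 panel per enzyme, in pathway order) of the 18 synthesis enzymes in the 5 groups. Points are libraries and lines are group means. In 17 panels the 3 HFD-Res points lie above the other 12, and Ebp is the exception. The share of all genes with this order was not counted.

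Per exon length, the enzymes that stood highest were not the same in each group. In HFD-Res, Hmgcs1 averaged 1219 ± 346 TPM, Msmo1 977 ± 225 TPM, Sc5d 590.4 ± 114 TPM and Fdps 581 ± 135 TPM, of which Sc5d and Fdps differed by less than their spread. In HFD-NS, Sc5d led with 279 ± 26.6 TPM, followed by Ebp with 242 ± 16.5 TPM, and Hmgcs1 averaged 135 ± 40.2 TPM. Mvk and Lss were low in both, at 40.4 ± 14.9 and 45.3 ± 13.7 TPM in HFD-Res, against 4.17 ± 0.499 and 5.9 ± 0.842 TPM in HFD-NS.

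Because the enzymes moved together in HFD-Res, their promoters were read in the RefSeq table for GRCm38.p6, an earlier build than that of the counts. It held the 250 bases before a start site for 24 of the 31 genes, and Fdps, Fdft1, Sqle, Stard4, Soat2, Abcg1 and Scarb1 had none. Both strands were searched for 5 sets of letters. The sterol regulatory element TCACNCCAC, a form of the SREBP site, was found in 1 of 24 genes (Hmgcs1) and in 1.3% of 10495 tested genes with a window. CCAAT, the letters bound by NF-Y, which acts beside SREBP at many sterol genes, was found in 20 of 24 and in 40.3% of tested genes. GGGCGG, the GC box bound by Sp1, was found in 20 of 24 and in 61.1%. TCACGTGA, an E-box, was found in 0 of 24 and 1.75%, and AGGTCA, a half-site of nuclear receptors such as the thyroid hormone receptor, in 3 of 24 and 13.5%. These counts cover all members with a window, not the enzymes alone. Among the 15 synthesis enzymes with a window, CCAAT was found in 14, GGGCGG in 14, AGGTCA in 2, TCACNCCAC in 1 and TCACGTGA in 0. A match describes letters only, and a window without one says nothing of a factor.

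The promoter windows of 4 enzymes are shown, 5′ to 3′ on the strand of the gene and ending at the base before the start, for the range they cover: Hmgcs1 with the sterol regulatory element and a large rise in HFD-Res, Mvd with the largest change with the diet, Sc5d with the smallest rise in HFD-Res, and Ebp, which was not called there. Capitals mark TCACNCCAC, CCAAT and GGGCGG or their reverse complements, which do not overlap in these windows.
Hmgcs1, chr13:119690101-119690350, plus strand: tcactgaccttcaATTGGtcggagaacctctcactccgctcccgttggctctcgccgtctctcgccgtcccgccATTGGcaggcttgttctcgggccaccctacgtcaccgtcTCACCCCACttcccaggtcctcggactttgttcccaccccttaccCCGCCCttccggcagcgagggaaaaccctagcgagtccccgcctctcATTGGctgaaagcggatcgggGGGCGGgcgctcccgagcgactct
Mvd, chr8:122443423-122443672, minus strand: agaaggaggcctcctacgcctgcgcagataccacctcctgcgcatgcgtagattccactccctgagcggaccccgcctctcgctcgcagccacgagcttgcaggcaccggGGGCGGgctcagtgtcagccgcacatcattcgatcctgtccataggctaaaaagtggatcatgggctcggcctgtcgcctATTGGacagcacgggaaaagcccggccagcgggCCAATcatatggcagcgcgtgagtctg
Sc5d, chr9:42264301-42264550, minus strand: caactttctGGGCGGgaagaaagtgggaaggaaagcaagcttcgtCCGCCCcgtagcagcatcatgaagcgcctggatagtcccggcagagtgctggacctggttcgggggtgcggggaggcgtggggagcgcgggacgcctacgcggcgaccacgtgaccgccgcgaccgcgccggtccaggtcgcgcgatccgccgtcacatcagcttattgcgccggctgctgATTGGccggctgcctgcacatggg
Ebp, chrX:8193513-8193762, minus strand: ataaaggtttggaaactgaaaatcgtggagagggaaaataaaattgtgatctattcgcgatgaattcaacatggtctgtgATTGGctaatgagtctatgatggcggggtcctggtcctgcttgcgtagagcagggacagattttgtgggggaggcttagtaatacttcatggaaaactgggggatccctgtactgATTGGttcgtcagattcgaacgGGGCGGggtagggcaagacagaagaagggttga
Hmgcs1 held 3 CCAAT matches and 2 GC boxes besides its sterol regulatory element, whose first base lies 137 bases before the start. Mvd held 2 CCAAT matches and 1 GC box, and Sc5d held 1 CCAAT match and 2 GC boxes. Ebp, whose RNA did not differ between HFD-Res and HFD-NS beyond the spread, also held 2 CCAAT matches and 1 GC box.

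Among the regulators, the genes of the sterol sensor moved unequally. Srebf2, the gene of SREBP-2 (chromosome 15, 82031470 to 82089161), had 14.4, 17.1 and 15.2 CPM in HFD-337, 22.3, 25.7 and 24.6 CPM in HFD-338, 46.7, 59.3 and 46.9 CPM in HFD-Res, 24.1, 28.9 and 24.8 CPM in HFD-NS, and 18.1, 19.2 and 14.9 CPM in SD-NS. HFD-Res was above and HFD-337 below all other libraries except those of SD-NS, which overlapped HFD-337. Srebf2 rose 1.97-fold in HFD-Res (log2FC 0.97, SE 0.123, adjusted p = 1.97e-05) and with the diet (log2FC 0.56, SE 0.134, adjusted p = 0.00454), and fell in HFD-337 (log2FC -0.72, SE 0.133, adjusted p = 0.000207).

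Scap, the escort of SREBP-2 (chromosome 9, 110162356 to 110214017), had 83.1, 79.4 and 68.8 CPM in HFD-337, 47.9, 43.7 and 45.3 CPM in HFD-338, 62.7, 67.2 and 54 CPM in HFD-Res, 60.7, 56.1 and 60.4 CPM in HFD-NS, and 52.3, 59.1 and 51.8 CPM in SD-NS. It was highest in HFD-337 and lowest in HFD-338, and HFD-Res and HFD-NS overlapped. Scap rose in HFD-337 (log2FC 0.38, SE 0.0984, adjusted p = 0.00342) and fell in HFD-338 (log2FC -0.37, SE 0.0991, adjusted p = 0.00629), calls lost under recomputed TPM (0.136) for HFD-337 and under recomputed TPM (0.16) for HFD-338. In HFD-Res it did not pass (log2FC 0.05, SE 0.0999, adjusted p = 0.817, 95% interval -0.16 to 0.26).

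Insig1, itself a target of SREBP in liver (chromosome 5, 28276410 to 28283660), had 93.5, 149 and 163 CPM in HFD-337, 107, 118 and 159 CPM in HFD-338, 309, 443 and 299 CPM in HFD-Res, 144, 169 and 120.3 CPM in HFD-NS, and 41.4, 51.1 and 43.6 CPM in SD-NS. HFD-Res lay above and SD-NS below all other libraries, and the remaining groups overlapped. Insig1 rose 2.43-fold in HFD-Res (log2FC 1.28, SE 0.222, adjusted p = 0.00168) and 3.18-fold with the diet (log2FC 1.67, SE 0.235, adjusted p = 0.000219).

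Insig2, whose liver transcript is known to be repressed by insulin (chromosome 1, 121232082 to 121260318), followed another order. It had 149.8, 182 and 137 CPM in HFD-337, 255, 278 and 263 CPM in HFD-338, 506, 426 and 422 CPM in HFD-Res, 431, 449.8 and 269 CPM in HFD-NS, and 1176, 1115 and 1057 CPM in SD-NS. The 3 SD-NS libraries held more than 2 times the level of any other library, those of HFD-337 the least, and HFD-NS replicate 16 stood below the other libraries of its group and within the range of HFD-338. Insig2 fell with the diet, to 34.4% of the SD-NS mean (log2FC -1.54, SE 0.155, adjusted p = 1.87e-06). It fell further in HFD-337 (log2FC -1.29, SE 0.155, adjusted p = 3.06e-06) and in HFD-338 (log2FC -0.53, SE 0.152, adjusted p = 0.0107), the second call being lost without HFD-NS replicate 12 (0.0514) or HFD-NS replicate 13 (0.0597) and under recomputed TPM (0.138). In HFD-Res it did not pass (log2FC 0.24, SE 0.152, adjusted p = 0.361).

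Mylip, a ubiquitin ligase that marks lipoprotein receptors for degradation (chromosome 13, 45543218 to 45565416), had 4.53, 3 and 3.45 CPM in HFD-337, 13.9, 9.52 and 9.82 CPM in HFD-338, 15.2, 17.7 and 14.7 CPM in HFD-Res, 12.8, 13.3 and 10.6 CPM in HFD-NS, and 17.8, 10.9 and 17.7 CPM in SD-NS. It was lowest in HFD-337 in every library, at 29.8% of the HFD-NS mean (log2FC -1.77, SE 0.236, adjusted p = 7.5e-06), the largest fall of any member in that group. HFD-Res was above HFD-NS in every library but did not pass (log2FC 0.37, SE 0.194, adjusted p = 0.251).

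**Figure D3:**
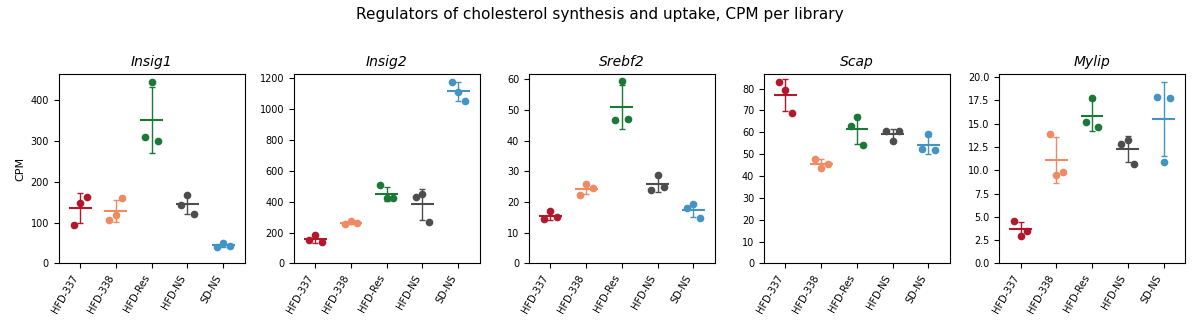
CPM (vertical axes) of the 5 regulators in the 5 groups. Points are libraries, lines are means and error bars are SDs. Srebf2 and Insig1 are highest in HFD-Res, Insig2 is highest in SD-NS, and Mylip is lowest in HFD-337, at 4.53 CPM or less.

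The genes of sterol transport and disposal split into those that rose in HFD-Res and those that did not. Stard4, a carrier of cholesterol between membranes (chromosome 18, 33332191 to 33346915), had 57.3, 68.6 and 91.5 CPM in HFD-337, 56.8, 64.2 and 79.7 CPM in HFD-338, 183, 258 and 197 CPM in HFD-Res, 84.4, 66.3 and 62.7 CPM in HFD-NS, and 45.5, 45.7 and 34.9 CPM in SD-NS. HFD-Res was highest and SD-NS lowest, with no overlap with HFD-NS on either side. It rose in HFD-Res (2.99-fold, log2FC 1.58, SE 0.188, adjusted p = 4.98e-05) and with the diet (log2FC 0.75, SE 0.195, adjusted p = 0.0113).

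Abcg5 (chromosome 17, 84965602 to 84990439) and Abcg8 (chromosome 17, 84983730 to 85007761) encode the partners of the transporter that secretes sterols into bile, and lie head to head, with 1.66% of the exon length of Abcg5 shared on opposite strands. Abcg5 had 70.9, 75.7 and 51.3 CPM in HFD-337, 49, 52.3 and 73.2 CPM in HFD-338, 197, 148 and 148 CPM in HFD-Res, 45.1, 66.2 and 63.9 CPM in HFD-NS, and 63.8, 44.1 and 46.1 CPM in SD-NS. Abcg8 had 49.4, 65.2 and 45.7 CPM in HFD-337, 38.6, 49.7 and 51.2 CPM in HFD-338, 176, 148 and 151 CPM in HFD-Res, 53.8, 62.3 and 80 CPM in HFD-NS, and 70.3, 53.1 and 63.3 CPM in SD-NS. Both stood clear of all other libraries in HFD-Res, while the other 4 groups overlapped for both genes except that HFD-338 lay below SD-NS and HFD-NS for Abcg8. Abcg5 rose 2.82-fold (log2FC 1.49, SE 0.211, adjusted p = 0.000343) and Abcg8 2.42-fold (log2FC 1.27, SE 0.161, adjusted p = 4.72e-05) in HFD-Res, and neither passed with the diet (adjusted p of 0.601 and 0.794 in edgeR).

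Soat1 and Soat2 esterify cholesterol, Soat2 being the form of hepatocytes and Soat1 that of many other cells. Soat1 (chromosome 1, 156255678 to 156301898) had 4.13, 2.19 and 2.23 CPM in HFD-337, 12.8, 12.9 and 8.11 CPM in HFD-338, 5.14, 2.76 and 4.65 CPM in HFD-Res, 3.39, 5.34 and 3.9 CPM in HFD-NS, and 2.93, 2.14 and 3.94 CPM in SD-NS. HFD-338 lay above every other library, and the other 4 groups overlapped. Soat2 averaged 36.9 ± 10.8 CPM in HFD-337, 33.7 ± 3.44 CPM in HFD-338, 37.5 ± 4.79 CPM in HFD-Res, 27.8 ± 3.32 CPM in HFD-NS, beside 19.6 ± 2.67 CPM in SD-NS, and passed in none of the 4 comparisons that involve HFD-NS. With the diet, however, 6 of 12 alternative fits called a rise of Soat2 (log2FC 0.40 to 0.59 over the 12). In HFD-337 against HFD-NS 2 of 12 did.

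Abcg1, an exporter of cholesterol prominent in macrophages (chromosome 17, 31276668 to 31336955), had 6.89, 3.8 and 5.07 CPM in HFD-337, 13.5, 13.9 and 9.16 CPM in HFD-338, 7.28, 6.21 and 5.96 CPM in HFD-Res, 6.31, 7.57 and 7.91 CPM in HFD-NS, and 2.8, 3.11 and 4.5 CPM in SD-NS. HFD-338 lay above all others, SD-NS overlapped HFD-337 at the low end, and HFD-Res and HFD-NS overlapped. Abcg1 rose with the diet (2.09-fold, log2FC 1.12, SE 0.263, adjusted p = 0.00377). Abca1, which loads cholesterol onto apolipoprotein A-I, averaged 145 ± 19.4 CPM in HFD-337, 205 ± 17 CPM in HFD-338, 207 ± 8.34 CPM in HFD-Res, 218 ± 7.55 CPM in HFD-NS, beside 215 ± 7.79 CPM in SD-NS. It was called in HFD-337 alone of the 4 comparisons that involve HFD-NS (log2FC -0.59, SE 0.0981, adjusted p = 7.37e-05).

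Scarb1, the receptor that takes up cholesteryl esters from high-density lipoprotein, was the one member that fell in HFD-Res. It averaged 87.6 ± 6.3 CPM in HFD-337, 103 ± 5.96 CPM in HFD-338, 80.4 ± 4.92 CPM in HFD-Res, 110.2 ± 9.19 CPM in HFD-NS, beside 84.2 ± 11.8 CPM in SD-NS. The 3 HFD-Res libraries lay below the 3 of HFD-NS (log2FC -0.45, SE 0.104, adjusted p = 0.00552). HFD-NS was in turn above SD-NS (log2FC 0.39, SE 0.104, adjusted p = 0.0089), a call lost without SD-NS replicate 7 (0.0708).

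**Figure D4:**
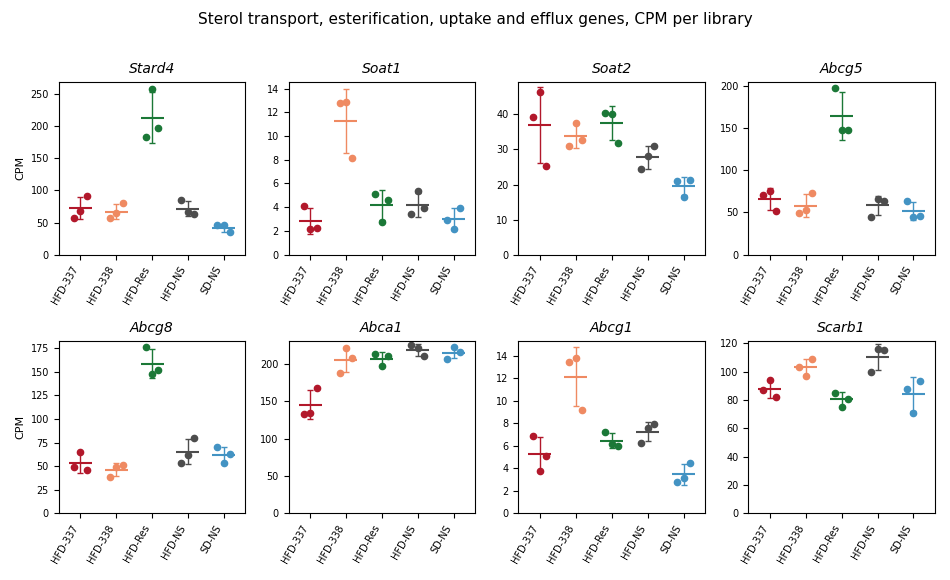
CPM (vertical axes) of 8 genes of sterol transport, esterification, uptake and efflux in the 5 groups. Points are libraries, lines are means and error bars are SDs. Stard4, Abcg5 and Abcg8 are highest in HFD-Res, Soat1 and Abcg1 in HFD-338.

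The diet comparison asked how the high-fat diet group differed from the SD group. Of the 31 genes, 15 rose and 2 fell in HFD-NS against SD-NS, where 12% of all genes tested rose and 16.1% fell. With recomputed TPM, 16 members rose and 2 fell, and over all genes 1984 rose and 1098 fell. The median log2 fold change of the 31 genes was 0.52, beside -0.02 over all genes. Of the 18 synthesis enzymes 10 rose and 1 fell, and 17 had a positive log2 fold change. The 2 falls were Hsd17b7, a synthesis enzyme, and Insig2, which restrains the pathway. The rises of 7 genes, Insig1, Mvd, Msmo1, Sqle, Nsdhl, Fdps and Abcg1, reached 2-fold, as did those of 4.49% of all genes tested, and Ebp rose by less (log2FC 0.39, SE 0.101, adjusted p = 0.00767). Of the 10 macrophage markers 2 rose and none fell, with sums of 133 to 192 CPM in HFD-NS and 90.2 to 176 CPM in SD-NS. Of the 6 hepatocyte markers 1 rose and 3 fell. The part of these cell types in the members' changes, that of Abcg1 among them, was not tested. HFD-NS libraries enter both this comparison and those with the treated groups, so the values are not independent of each other.

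In HFD-337 against HFD-NS the pathway did not move as a block. Of the 31 genes 5 rose and 8 fell, where 24.4% of all genes tested rose and 22.8% fell, and the members' shares lay near these. With recomputed TPM, 1 member rose and 10 fell. Of the genes that its own filter kept, whose total is not given, 2220 rose and 3593 fell. The median log2 fold change of the 31 was -0.23, beside 0.03 over all genes. Synthesis enzymes changed in both directions, with 4 rises and 3 falls among 18, while 3 of 5 regulators fell. For these enzymes recomputed TPM gave 1 rise and 5 falls, and the fit without the low-count filter 2 rises and 4 falls. Acat2 did not pass (log2FC -0.35, SE 0.142, adjusted p = 0.0506 in edgeR), though 6 of 12 alternative fits called a fall.

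The calls kept under all 12 alternatives in HFD-337 were the rise of Ebp (log2FC 0.67, SE 0.1, adjusted p = 2.37e-05) and the falls of Hsd17b7 (log2FC -0.80, SE 0.152, adjusted p = 0.000349), Insig2, Srebf2, Mylip and Abca1. Fdps rose (log2FC 0.70, SE 0.263, adjusted p = 0.0441), a call lost without HFD-337 replicate 23 (0.0956), HFD-337 replicate 26 (0.068), HFD-337 replicate 27 (0.111), HFD-NS replicate 13 (0.141) or HFD-NS replicate 16 (0.136) and under no low-count filter (0.0927), recomputed TPM (0.0684) or a fit of only the 2 groups (0.088). Sqle rose (log2FC 0.52, SE 0.196, adjusted p = 0.0411), a call lost without HFD-337 replicate 23 (0.118), HFD-337 replicate 27 (0.103), HFD-NS replicate 13 (0.109) or HFD-NS replicate 16 (0.151) and under no low-count filter (0.0796), recomputed TPM (0.146) or a fit of only the 2 groups (0.0707). For both genes the margin to the threshold was small. Lss rose (log2FC 0.51, SE 0.177, adjusted p = 0.0254), a call lost without HFD-337 replicate 26 (0.0515), HFD-337 replicate 27 (0.125) or HFD-NS replicate 16 (0.105) and under recomputed TPM (0.166).

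Tm7sf2 fell in HFD-337 (log2FC -0.48, SE 0.163, adjusted p = 0.0227), a call lost without HFD-337 replicate 23 (0.102), HFD-NS replicate 12 (0.079) or HFD-NS replicate 16 (0.0546) and under limma-voom (0.0587). Sc5d fell (log2FC -0.28, SE 0.112, adjusted p = 0.0485), a call lost without HFD-337 replicate 23 (0.0621), HFD-337 replicate 27 (0.15), HFD-NS replicate 12 (0.0648), HFD-NS replicate 13 (0.159) or HFD-NS replicate 16 (0.0617) and under a fit of only the 2 groups (0.0693). Scarb1 fell (log2FC -0.33, SE 0.103, adjusted p = 0.0133), a call lost without HFD-NS replicate 13 (0.0513). The sizes of these 3 falls were under those of Insig2 and Mylip in the same livers.

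The genomic span of a gene moved with its change in HFD-337. Of 3544 genes that span under 10 kb, 40.0% rose and 9.88% fell. Of 8062 genes of 10 to 100 kb, 20.6% rose and 24.6% fell, and of 1028 genes of 100 to 200 kb, 9.14% rose and 40.6% fell. Of the 5 members that rose, Ebp (8.18 kb) and Fdps (8.38 kb) lie in the first class, and Sqle (16.1 kb), Lss (25.5 kb) and Scap (51.7 kb) in the next. Of the 8 that fell, Tm7sf2 (5.03 kb) lies in the first class, Sc5d (10.1 kb), Hsd17b7 (19.7 kb), Mylip (22.2 kb), Insig2 (28.2 kb), Srebf2 (57.7 kb) and Scarb1 (64.0 kb) in the next, and Abca1 (129.1 kb) in the third. The summed level of 6 endothelial markers was 55 to 67.7 CPM in HFD-337 and 160.3 to 198 CPM in HFD-NS, and all 6 fell. The stellate markers summed to 104 to 206 CPM in HFD-337 and 277 to 345 CPM in HFD-NS, with 3 falls among 6. The 10 macrophage markers summed to 51.3 to 128 CPM in HFD-337 and 133 to 192 CPM in HFD-NS, with 2 falls and 1 rise. The bile duct markers summed to 61.5 to 239.6 CPM in HFD-337 and 47.5 to 63 CPM in HFD-NS, with 2 rises among 5 tested, so that the first 3 sums did not overlap between the groups and the last did. Of the 6 hepatocyte markers 1 rose and 2 fell in HFD-337. Apoa1 averaged 12070 ± 1426 CPM in HFD-337 and 7109 ± 608 CPM in HFD-NS. In the same order Cps1 averaged 1110 ± 441 and 2921 ± 568 CPM, and Hnf4a 390 ± 28.4 and 651 ± 34.4 CPM. Tat averaged 481 ± 246 and 762 ± 91.2 CPM, and Alb and Ttr overlapped between the groups. The part of span and of RNA from these cell types in the members' changes was not tested.

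In HFD-338 against HFD-NS, 7 of the 31 genes rose and 6 fell, where 18.9% of all genes tested rose and 17.9% fell, so that the members' shares lay near the background. With recomputed TPM, 8 members rose and 2 fell. Of the genes that its own filter kept, whose total is not given, 2782 rose and 1359 fell. The median log2 fold change was 0.10 over the 31 genes, beside 0.00 over all genes. Soat1 rose 2.67-fold (log2FC 1.42, SE 0.266, adjusted p = 0.000392), the sole change of at least 2-fold among the members, where 10.5% of all genes tested rose that far. Among synthesis enzymes Sqle rose (log2FC 0.83, SE 0.191, adjusted p = 0.00335), and Tm7sf2 (log2FC -0.79, SE 0.162, adjusted p = 0.00103) and Ebp (log2FC -0.54, SE 0.1, adjusted p = 0.000395) fell, calls kept under all 12 alternatives as was that of Soat1.

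The other calls in HFD-338 depended on the setting. Mvk rose (log2FC 0.71, SE 0.27, adjusted p = 0.0462), a call lost without HFD-338 replicate 17 (0.0645), HFD-338 replicate 18 (0.133), HFD-338 replicate 19 (0.088), HFD-NS replicate 12 (0.111), HFD-NS replicate 13 (0.133) or HFD-NS replicate 16 (0.0541) and under limma-voom (0.0643). Idi1 rose (log2FC 0.96, SE 0.327, adjusted p = 0.0355), a call lost without HFD-338 replicate 18 (0.0927), HFD-338 replicate 19 (0.101), HFD-NS replicate 13 (0.0939) or HFD-NS replicate 16 (0.124) and under no low-count filter (0.0747). The remaining rises among synthesis enzymes were those of Lss and Msmo1. Lss (log2FC 0.55, SE 0.173, adjusted p = 0.02) lost its call without HFD-338 replicate 19 (0.0819) or HFD-NS replicate 16 (0.0925), and Msmo1 (log2FC 0.58, SE 0.175, adjusted p = 0.0168) without HFD-338 replicate 19 (0.0766) or HFD-NS replicate 16 (0.0785). Sc5d fell (log2FC -0.31, SE 0.112, adjusted p = 0.0387), a call lost without HFD-338 replicate 17 (0.158), HFD-338 replicate 18 (0.116), HFD-NS replicate 12 (0.0558), HFD-NS replicate 13 (0.122) or HFD-NS replicate 16 (0.0529) and under RLE size factors (0.0614), DESeq2 (0.0551) or recomputed TPM (0.344).

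Abcg8, on the disposal side, fell in HFD-338 (log2FC -0.49, SE 0.163, adjusted p = 0.0261), a call lost without HFD-338 replicate 17 (0.115) or HFD-NS replicate 16 (0.13) and under recomputed TPM (0.147). Abcg1 rose (log2FC 0.74, SE 0.211, adjusted p = 0.00959), a call lost without HFD-338 replicate 18 (0.0513). Markers of other cell types also moved in HFD-338, in both directions. The summed level of 10 macrophage markers was 229.8 to 575 CPM in HFD-338 and 133 to 192 CPM in HFD-NS, and 5 of the 10 rose. The 6 bile duct markers summed to 582 to 734 CPM in HFD-338 and 47.5 to 63 CPM in HFD-NS, with 5 rises among 5 tested. The 6 stellate markers summed to 542 to 908 CPM in HFD-338 and 277 to 345 CPM in HFD-NS, with 3 rises. The 6 endothelial markers summed to 62.2 to 114 CPM in HFD-338 and 160.3 to 198 CPM in HFD-NS, with 5 falls. Of the 6 hepatocyte markers 2 fell and none rose in HFD-338. Hnf4a averaged 374 ± 28.5 CPM in HFD-338 and 651 ± 34.4 CPM in HFD-NS. In the same order Ttr averaged 5588 ± 270 and 7260 ± 623 CPM, and Apoa1 5881 ± 331 and 7109 ± 608 CPM. Alb, Cps1 and Tat overlapped between the groups. The part of these cell types in the values of Soat1, Abcg1 and the other members was not tested.

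HFD-337 and HFD-338 were also compared directly. Of the 31 genes 2 rose and 11 fell in HFD-337 against HFD-338, where 28.8% of all genes tested rose and 29.6% fell, and the median log2 fold change was -0.27, beside 0.00 over all genes. With recomputed TPM, 2 members rose and 16 fell. Of the genes that its own filter kept, whose total is not given, 2187 rose and 5284 fell. Genomic span moved with the change here too. Of genes under 10 kb 46.3% rose and 16.4% fell, and of genes of 10 to 100 kb 24.4% rose and 31.7% fell. Of genes of 100 to 200 kb 12.6% rose and 49.5% fell, and the part of span in the members' changes was not tested. Ebp, highest of all groups in HFD-337, rose 2.31-fold (log2FC 1.21, SE 0.101, adjusted p = 3.55e-08), and Scap rose (log2FC 0.76, SE 0.0998, adjusted p = 4.83e-06). The largest falls were those of Soat1 (log2FC -2.01, SE 0.298, adjusted p = 1.74e-05), Idi1 (log2FC -1.81, SE 0.379, adjusted p = 0.00137), Mylip (log2FC -1.63, SE 0.239, adjusted p = 1.52e-05) and Abcg1 (log2FC -1.25, SE 0.231, adjusted p = 0.000163).

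Smaller falls in HFD-337 against HFD-338 were found for Hsd17b7 (-0.90 on the log2 scale), Insig2 (-0.76), Srebf2 (-0.63) and Abca1 (-0.50), all kept under the 12 alternatives. Those of Cyp51 (log2FC -0.88, SE 0.271, adjusted p = 0.0149), Fdft1 (log2FC -0.38, SE 0.133, adjusted p = 0.0191) and Msmo1 (log2FC -0.47, SE 0.176, adjusted p = 0.0329) were not. Cyp51 lost its call without HFD-337 replicate 23 (0.0635) or HFD-337 replicate 26 (0.0614), and Fdft1 without HFD-337 replicate 23 (0.057) or HFD-337 replicate 27 (0.063). Msmo1 lost its call without HFD-337 replicate 23 (0.145) or HFD-338 replicate 19 (0.135) and under no low-count filter (0.0583) or limma-voom (0.0551). Macrophage, bile duct and stellate marker sums also differed between the groups, at 51.3 to 128, 61.5 to 239.6 and 104 to 206 CPM in HFD-337, against the HFD-338 values above.

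Against HFD-Res, both numbered groups were lower over most of the pathway. In HFD-337 against HFD-Res 25 of the 31 genes fell and 2 rose, where 23.3% of all genes tested fell and 24.3% rose. In HFD-338 against HFD-Res 26 fell and 3 rose, where 20.9% of all genes tested fell and 22.2% rose. Recomputed TPM gave 3739 falls and 2410 rises for HFD-337, and 1778 falls and 3580 rises for HFD-338. These are counts among the genes that its own filter kept, whose total is not given. The median log2 fold change of the 31 was -2.02 in HFD-337 and -1.77 in HFD-338, each set against HFD-Res, beside 0.03 and 0.00 over all genes. In HFD-337 against HFD-Res, 38.2% of genes under 10 kb rose and 11.3% fell, and 9.82% of genes of 100 to 200 kb rose and 39.4% fell. The part of span was not tested here either. The comparisons of HFD-337 and of HFD-338 with HFD-Res share the HFD-Res libraries.

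All synthesis enzymes but Ebp fell in HFD-337 against HFD-Res, with Idi1 at one end (log2FC -5.13, SE 0.351, adjusted p = 2.02e-07) and Sc5d at the other (log2FC -1.36, SE 0.114, adjusted p = 3.48e-08), whereas Ebp rose (log2FC 0.63, SE 0.1, adjusted p = 4.76e-05). In HFD-338 all 18 fell, Ebp least (log2FC -0.58, SE 0.101, adjusted p = 0.000162). Insig2 fell in HFD-337 (log2FC -1.53, SE 0.157, adjusted p = 4.28e-07) and in HFD-338 (log2FC -0.77, SE 0.153, adjusted p = 0.000624), and Mylip in HFD-337 (log2FC -2.14, SE 0.239, adjusted p = 8.87e-07). The fall of Mylip in HFD-338 (log2FC -0.50, SE 0.197, adjusted p = 0.0456) was lost without HFD-338 replicate 18 (0.162), HFD-338 replicate 19 (0.13), HFD-Res replicate 29 (0.0684), HFD-Res replicate 30 (0.136) or HFD-Res replicate 34 (0.0621) and under RLE size factors (0.0562), DESeq2 (0.0796), limma-voom (0.0533) or recomputed TPM (0.187). Scap rose in HFD-337 (log2FC 0.34, SE 0.1, adjusted p = 0.00975), a call lost without HFD-Res replicate 34 (0.0712) and under recomputed TPM (0.221), and fell in HFD-338 (log2FC -0.42, SE 0.101, adjusted p = 0.00259), a call lost under recomputed TPM (0.0813). Soat1, Abcg1 and Scarb1 rose in HFD-338 against HFD-Res (log2FC 1.41, SE 0.285, adjusted p = 0.000641 for Soat1, log2FC 0.92, SE 0.228, adjusted p = 0.00336 for Abcg1, and log2FC 0.36, SE 0.104, adjusted p = 0.00976 for Scarb1).

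**Figure D5:**
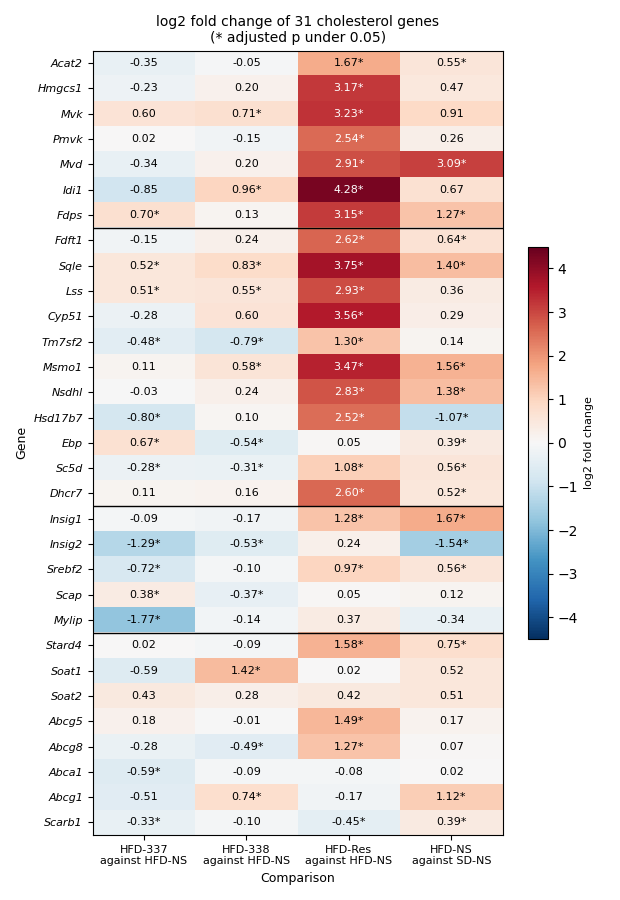
Fitted log2 fold changes (colour and numbers) of the 31 genes, by role from top to bottom, for 3 groups (HFD-337, HFD-338, HFD-Res) over HFD-NS and for HFD-NS over SD-NS. An asterisk marks an adjusted p under 0.05. The HFD-Res column holds 22 rises and 1 fall, and the HFD-337 and HFD-338 columns hold calls in both directions.

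Genes near the pathway were listed by role, and their counts of calls stand beside the 6.22% of all genes tested that rose and the 6.74% that fell in HFD-Res against HFD-NS. Of 14 other genes of sterol sensing and SREBP handling, 1 rose and 1 fell in HFD-Res, shares near that background. The rise was that of Gramd1c, of a family that moves cholesterol from the plasma membrane, at 174 ± 3.7 CPM in HFD-Res and 59.8 ± 4.51 CPM in HFD-NS (log2FC 1.54, SE 0.0864, adjusted p = 4.05e-10), and the fall that of Erlin2 (log2FC -0.62, SE 0.117, adjusted p = 0.0011). Of 10 genes of lysosomal and intracellular sterol handling 2 rose and 1 fell, and with recomputed TPM 1 rose and 1 fell. Tmem97, a membrane protein known to respond to sterol depletion, rose to 96.7 ± 5.22 CPM in HFD-Res, against 41.7 ± 4.01 CPM in HFD-NS (log2FC 1.21, SE 0.0988, adjusted p = 7.77e-08), and Scp2, a sterol carrier of peroxisomes, fell (log2FC -0.77, SE 0.13, adjusted p = 0.000398). Of 10 genes of the non-sterol branches of mevalonate metabolism, such as those of ubiquinone and protein prenylation, edgeR called 0, as did DESeq2, limma-voom and recomputed TPM, and 1 had an unadjusted p under 0.05 in each. Of the 7 other genes of lipoprotein uptake 0 rose and 2 fell by each of these 4 methods (Vldlr and Lrp1 in edgeR), and 3 had an unadjusted p under 0.05 in each.

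In HFD-337 against HFD-NS, where 24.4% of all genes tested rose and 22.8% fell, 5 of the 10 lysosomal and intracellular genes fell and none rose by edgeR, DESeq2, limma-voom or recomputed TPM. Of the 14 sensing genes 3 rose and 3 fell, shares near the background. Among the lysosomal and intracellular falls were those of Lipa, the lysosomal lipase that frees cholesterol from its esters (126 ± 12 CPM in HFD-337 and 277 ± 20.1 CPM in HFD-NS, log2FC -1.13, SE 0.115, adjusted p = 3.94e-07) and of Nceh1, an ester hydrolase (log2FC -0.98, SE 0.136, adjusted p = 1.16e-05). Of the 7 uptake genes 3 fell and 1 rose in HFD-337, the largest fall being that of Vldlr, a receptor for triglyceride-rich lipoproteins (log2FC -2.26, SE 0.474, adjusted p = 0.0014). Vldlr also fell in HFD-338 (log2FC -1.80, SE 0.438, adjusted p = 0.00562) and in HFD-Res (log2FC -2.50, SE 0.503, adjusted p = 0.00418), comparisons that share the HFD-NS libraries, in which its mean was 15.3 ± 5.98 CPM, against 4.36 ± 1.1 CPM in SD-NS. In HFD-338, Gramd1b rose to 9.89 ± 0.387 CPM, against 2.33 ± 0.421 CPM in HFD-NS (log2FC 2.07, SE 0.245, adjusted p = 4.8e-06).

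With the diet, where 12% of all genes tested rose and 16.1% fell, 2 of the 14 sensing genes rose and 4 fell. The falls numbered 4 by limma-voom but 1 by DESeq2 and 1 with recomputed TPM. The rises included Srebf1, the gene of the SREBP that governs fatty acid synthesis (log2FC 1.40, SE 0.315, adjusted p = 0.00563). Of the 10 lysosomal and intracellular genes 1 rose and 2 fell, shares near the background, the larger fall being that of Nceh1 (log2FC -1.25, SE 0.128, adjusted p = 1.87e-06). Of the 7 uptake genes 3 rose by edgeR, and 4 by DESeq2, limma-voom or recomputed TPM, led by Cd36, a fatty acid and lipoprotein scavenger receptor, with 434 ± 62 CPM in HFD-NS, beside 70.3 ± 6 CPM in SD-NS (log2FC 2.62, SE 0.26, adjusted p = 1.76e-05).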

How the data were processed

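Liver RNA of 15 mice was sequenced as polyadenylated RNA, per the labels' protocols. Per the submitters' processing notes, the tools were STAR 2.7.10b, Bowtie 1.3.1, featureCounts 2.0.1 and Trim Galore 0.6.10, with build mm39. Per the file headers, featureCounts gave the deposited counts per gene from exonic reads, ignoring strand and assigning a read to each gene that it overlaps. The authors' exon lengths beside the counts served for TPM. A deposited TPM table was not used, since its column names do not match the labels.

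Libraries were grouped by their titles. Genes passing filterByExpr were fitted in 1 model of all 15 libraries with TMM scaling (edgeR 4.0.16, R 4.3.3, robust quasi-likelihood test, common biological coefficient of variation 0.134). In each of 7 comparisons the p-values were adjusted by Benjamini-Hochberg over 13189 genes. The procedure was also run on simulated counts in which few genes were changed, in HFD-337 alone. That run cannot show how the procedure behaves where many genes change, as in HFD-337 against HFD-NS here. The 12 alternatives per comparison were DESeq2 1.42.0, RLE size factors, limma-voom with quality weights (limma 3.58.1), no filter on low counts, recomputed TPM (limma on log2(TPM + 1), keeping a gene at 1 TPM or more in 3 libraries), only the 2 groups compared, and each library left out in turn.

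The members, lists and motifs were chosen with earlier results of these data known. Members called with a change of at least 2-fold in a comparison that involves HFD-NS, and Srebf2, Scap, Insig1 and Insig2, have all libraries given, and up to 3 called genes per direction of the other lists could be named. Promoters were matched to RefSeq by symbol, for 24 of 31 members.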

Additional observations from a re-analysis of the deposited data

How the results depend on the processing

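All 23 calls of HFD-Res against HFD-NS were kept under each of the 12 alternatives, with 22 rises and 1 fall in each. Calls kept throughout numbered 14 of 17 in HFD-NS against SD-NS, 6 of 13 in HFD-337 against HFD-NS, 4 of 13 in HFD-338 against HFD-NS, 10 of 13 in HFD-337 against HFD-338, 26 of 27 in HFD-337 against HFD-Res and 27 of 29 in HFD-338 against HFD-Res. No called member changed direction. Members not called that an alternative called numbered 8 in HFD-337 against HFD-NS, 3 in HFD-338 against HFD-NS, 4 in HFD-NS against SD-NS, 7 in HFD-337 against HFD-338 and 1 in HFD-337 against HFD-Res.

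For HFD-337 against HFD-NS, the 5 rises became 3 without the low-count filter, 1 with recomputed TPM, 3 with only the 2 groups compared, and 3 to 5 when libraries were left out in turn. The 3 came without HFD-337 replicate 26 or 27 and without HFD-NS replicate 13 or 16. For HFD-338 against HFD-NS, the 6 falls became 2 with recomputed TPM, and the 7 rises ran from 3 to 9 when libraries were left out, with 4 without HFD-338 replicate 18 and 3 without HFD-338 replicate 19 or HFD-NS replicate 16. For HFD-337 against HFD-Res, the 2 rises became 1 with recomputed TPM and ran from 1 to 2 when libraries were left out, with 1 without HFD-Res replicate 34. The cause of these shifts was not tested. Recomputed TPM moved the median log2 fold change of all genes to 0.12 in HFD-338 against HFD-NS, -0.23 in HFD-337 against HFD-338 and 0.12 in HFD-338 against HFD-Res.

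No paired analysis was possible because the groups share no replicate number. With 3 libraries per group, precision is limited for genes of few counts, such as Mvd in SD-NS at 0.399 to 1.12 CPM, or Soat1. Reads shared by overlapping genes (Idi1, Fdft1) stay joined under all alternatives, as would any reads that Acat2 may share with its close copy.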

Other observations

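Within HFD-Res, the synthesis enzymes kept nearly the same order of libraries. Replicate 30 was the highest of the 3 libraries in 16 of 18 enzymes, and replicate 34 the lowest in 16 of 18. Their summed level was 5372 TPM in replicate 29, 6678 TPM in replicate 30 and 4249 TPM in replicate 34, with total counts of 4637933, 4173224 and 6814824. Insig1 was also highest in replicate 30, at 442.8 CPM, against 308.9 CPM in replicate 29 and 298.9 CPM in replicate 34, as was Stard4. Tm7sf2, Ebp, Abcg5 and Abcg8 were instead highest in replicate 29.

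Within HFD-NS, replicate 12 was the highest of the group in 13 of 18 synthesis enzymes and replicate 16 the lowest in 12 of 18. The summed level was 1192 TPM in replicate 12, 1097 TPM in replicate 13 and 958.3 TPM in replicate 16, with total counts of 8762163, 8030651 and 9797743. Hmgcs1 spanned 172.7 to 317.3 CPM and Cyp51 52.3 to 100.4 CPM across these 3 libraries, while Sc5d spanned 309.3 to 343.6 CPM. In HFD-338, replicate 19 was the highest of its group in 15 of 18 enzymes, and in HFD-337 replicate 23 was the lowest in 11 of 18. The library orders within HFD-Res, HFD-NS, HFD-338 and HFD-337 were counted for the synthesis enzymes only, and whether all genes share them was not tested. Libraries of 1 group share an assignment by label only, and what sets them apart was not tested.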
